A study of Mus musculus with 5 samples.

Results

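The genes described here encode the proteins of the cytosolic ribosome, followed in the bone marrow of irradiated mice. Members were chosen by name alone: every probe annotated to a gene whose symbol is Rpl or Rps and a number, with or without a final letter, together with Rplp0, Rplp1, Rplp2 and Rpsa. Pseudogenes and the Rps6k kinases were kept out. The rule found 88 probes for 59 genes among the 34885 probes that carry a single gene symbol, which cover 19057 genes. Of the 59 genes, 24 belong to the small subunit (Rps and Rpsa) and 35 to the large subunit (Rpl and Rplp). RefSeq lists 58 of them as protein-coding and 1, Rps4l, as a transcribed pseudogene. Some genes of the family were not analysed here.

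Male BALB/c mice of 7 to 8 weeks received a single whole-body dose of 4 Gy of gamma rays, and the whole bone marrow was collected on day 3, 7, 11 or 21 (days after irradiation, DAI). Marrow of sham-irradiated mice of the same strain, sex and listed age stood for 0 DAI. No sham array was read at a later time. Differences from 0 DAI therefore cannot be told apart from those of time or of age at collection. Gene expression was read on Illumina mouse bead arrays, with 1 array at each time, so that no spread between animals was available and no difference below carries a test. Whether an array held the RNA of 1 mouse or of several was not settled by the sources used here, and in RNA from a whole tissue a smaller number of cells of one type cannot be told apart from less RNA in each of those cells.

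Ribosomal proteins, together with ribosomal RNA, build the particle that translates every messenger RNA of the cytoplasm. Each protein is needed in about the same number of copies, and growing, dividing cells, such as the precursors that refill an emptied marrow, spend much of their transcription on them. In mammals their messenger RNAs share a tract of pyrimidines (C and T) that begins at the start of transcription, the 5′ terminal oligopyrimidine or TOP tract, through which mTOR signalling and the RNA-binding protein Larp1 govern their translation. Red-cell precursors are known to be sensitive to their dose: in humans, loss of 1 copy of one of several of these genes causes Diamond-Blackfan anemia. Some members have a role outside the ribosome as well, among them the proteins that bind Mdm2 and so spare p53 when ribosome assembly is disturbed.

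The TOP tract is the feature these genes share that the choice by name did not use, and the RefSeq promoter table (build GRCm38.p6) lists a start for 48 of the 59 genes, 58 starts in all. The windows below run from 15 bases before to 15 bases from the listed start, 5′ to 3′ on the strand of the gene, with the longest unbroken run of C and T in capitals. The first 8 are genes with long runs whose values are given later, and the last 3 are genes with short ones.
Rpl7a, chr2:26910792-26910821, + strand: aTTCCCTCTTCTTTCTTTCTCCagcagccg
Rpl27a, chr7:109519180-109519209, + strand: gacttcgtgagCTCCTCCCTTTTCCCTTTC
Rpl13a, chr7:45128731-45128760, - strand: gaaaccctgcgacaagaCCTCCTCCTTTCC
Rps10, chr17:27635230-27635259, - strand: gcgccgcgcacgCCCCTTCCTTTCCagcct
Rpl28, chr7:4792950-4792979, + strand: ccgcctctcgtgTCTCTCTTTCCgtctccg
Rpl4, chr9:64173372-64173401, + strand: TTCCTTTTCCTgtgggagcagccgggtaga
Rplp2, chr7:141447636-141447665, + strand: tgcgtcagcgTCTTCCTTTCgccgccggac
Rps6, chr4:86857353-86857382, - strand: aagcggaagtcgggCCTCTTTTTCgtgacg
Rplp0, chr5:115559452-115559481, + strand: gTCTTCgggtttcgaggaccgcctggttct
Rpl36a, chrX:134585639-134585668, + strand: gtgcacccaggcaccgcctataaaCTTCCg
Rpl24, chr16:55966260-55966289, + strand: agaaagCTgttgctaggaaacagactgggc
The run was 21 bases long at Rpl7a, 19 at Rpl27a, 13 at Rpl13a and at Rps10, and 2 at Rpl24. Over the 58 member starts the median longest run was 6 bases, against 4 over all 32851 listed starts of 27025 genes. Runs of 8 or more bases stood at 36.2% of the member starts and at 12% of all starts. A listed start can lie some bases from the one the cell uses, so a short run says only that these letters were not in this window. Runs were counted anywhere in the window, and that of Rpl4 ends before the listed start. A long run therefore need not be a TOP tract.

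In the 250 bases before the start, counting both strands, the letters CCGGAA, the core bound by factors of the ETS family, occurred at 36.2% of the member starts and at 12% of all starts. GGGCGG, the core of the Sp1 site, occurred at 46.6% and 32.7%. TATAAA was the less frequent one among members, at 5.17% against 12.4% of all starts, and AAGATGG, the core of the YY1 site, was at 5.17% and 4.49%. Each motif was counted on its own and none contains another. These are letter matches and carry no measure of binding.

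The probes of this family are among the brightest of the array. Of the 59 genes, taking for each the probe of highest average signal, 50 were above a floor of 64 units on all 5 arrays, 3 on some arrays and 6 on none. Members made up 30 of the 100 genes with the highest mean signal. The highest reading of each array lay between 50748 and 53224, and values above 30000 are marked here as near saturation, though readings between that mark and the highest still differed. By that mark 24 member genes exceeded 30000 on at least 1 array and 12 on all 5. The signals of different probes do not rank the abundance of their messenger RNAs, so levels are compared below only within a probe.

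Across the 5 arrays the family was lower at 7 and 21 DAI than at 0, 3 and 11 DAI. The median signal of the 50 genes above the floor throughout ran 26721, 26221, 20847, 26928 and 22069 in the order 0, 3, 7, 11 and 21 DAI. All 88 member probes together, second probes of a gene included, held 5.69%, 5.58%, 4.80%, 5.70% and 5.06% of the summed signal of all probes at those times. Counted gene by gene, 33 of the 50 had their lowest reading at 7 DAI and 10 at 21 DAI, where 19.7% and 11% of all 7129 genes above the floor throughout had theirs. The highest reading was at 0 DAI in 18 members and at 11 DAI in 19, as in 9.59% and 27.7% of all genes. In 38 of the 50 the reading at 7 DAI was below those at 0, 3 and 11 DAI, as in 23.8% of all genes. In 30 of the 50, the readings at 7 and at 21 DAI were both below those at 0, 3 and 11 DAI, a pattern held by 9.92% of all genes. The shifts were small, with a median range over the 5 arrays of 0.44 on the log2 scale, against 0.77 over all genes.

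**Figure D1:**
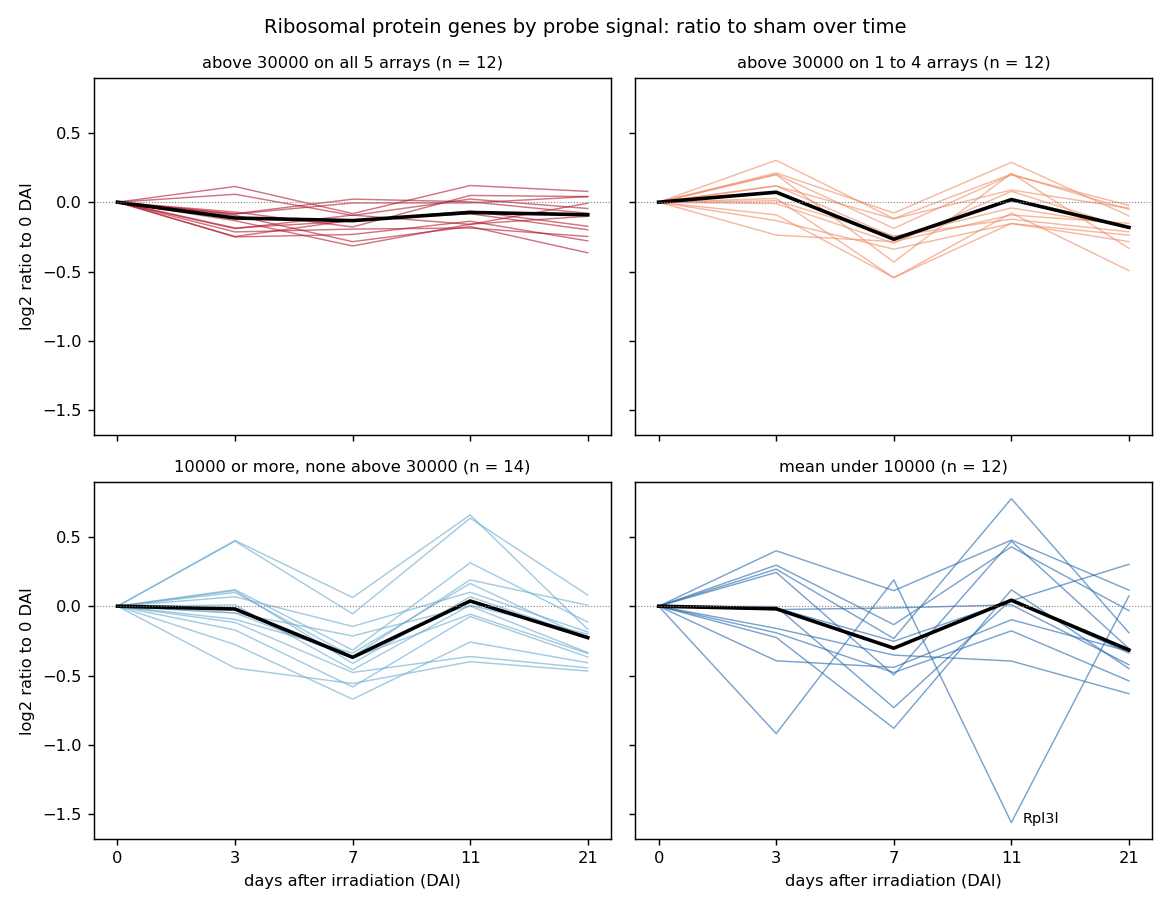
Log2 ratio of each array to 0 DAI (vertical axis) at 0, 3, 7, 11 and 21 DAI (horizontal axis, times evenly spaced) for the 50 ribosomal protein genes above the floor on all 5 arrays, in 4 panels by probe signal; thin lines are genes and the black line is the median. The median dips at 7 and 21 DAI in the 3 panels that are not above 30000 on all arrays. In the panel that is, it falls from 0 at 0 DAI and stays between -0.13 and -0.07 at 3, 7, 11 and 21 DAI. Rpl3l is the line that runs against the others.

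Set against 0 DAI, the median log2 ratio over the member genes was -0.05, -0.27 and 0.00 at 3, 7 and 11 DAI (52 genes each) and -0.19 at 21 DAI (53 genes). Genes at large lay slightly above 0 on this scale, with medians of 0.12, 0.11, 0.12 and 0.17 at those times. Relative to that shift the family stood at -0.16, -0.38, -0.11 and -0.35. At 7 DAI 48 of the 52 members were below 0 DAI, against 39.5% of all genes, and at 21 DAI 43 of the 53 were, against 33.9% of all genes. At 3 DAI 31 of 52 were below (40% of all genes) and at 11 DAI 25 of 52 (40.9%). The negative median at 7 and 21 DAI kept its sign with quantile normalization and with scaling to the array median, while that at 3 DAI turned to 0.01 with quantile normalization and that at 11 DAI to -0.12 with median scaling.

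Few members differed from sham by much. With a called difference set at 2-fold, no member was higher at 3, 7, 11 or 21 DAI, where 5.56%, 4.09%, 6% and 2.56% of all genes were. The lower calls numbered 0, 0, 1 and 0 at 3, 7, 11 and 21 DAI, where 4.19%, 3.40%, 5.21% and 3.69% of all genes were called lower, and the single one was Rpl3l. At a size of 1.5-fold, members were lower 2, 4, 1 and 1 times and higher 0, 0, 3 and 0 times, against 10.7%, 8.25%, 12.5% and 8.02% of all genes lower and 16.5%, 15.2%, 18.2% and 14.2% higher.

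The step from one time to the next showed the same turn in most members. From 3 to 7 DAI the reading was lower in 41 of 50 members, with a median log2 difference of -0.27 (51.8% of all genes lower). Between 7 and 11 DAI it was higher at 11 DAI in 46 of 50, with a median of 0.30 (52.2% of all genes higher). At 21 DAI it was below that at 11 DAI in 45 of 50, with a median of -0.21 (45.8% of all genes lower). Each step shares an array with the next, and all members share the same 5 arrays.

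The medians of the subunits were close to each other. The small-subunit medians were -0.06, -0.20, 0.01 and -0.18 at 3, 7, 11 and 21 DAI (22 genes each), and the large-subunit medians -0.03, -0.29, -0.02 and -0.19 (30, 30, 30 and 31 genes). At 7 DAI 21 of 22 small-subunit and 27 of 30 large-subunit genes were below 0 DAI.

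The members with the lowest ratios at 7 DAI came from both subunits. Rpl13a, a surface protein of the large subunit that in human monocytes also leaves the ribosome to silence inflammatory messages, read 3422, 2926, 1860, 3713 and 2506 at 0, 3, 7, 11 and 21 DAI, so that 7 DAI was 1.84-fold below 0 DAI (log2 ratio -0.88). Rpl19, a large-subunit protein that reaches across the interface to the small subunit, read 7352, 7336, 4430, 7595 and 5818, and stood 1.66-fold lower at 7 DAI than at 0 DAI (-0.73). In both genes the array at 7 DAI was the lowest and that at 11 DAI the highest. In the small subunit, Rps21 read 25901, 21382, 16279, 21655 and 19530 (-0.67 at 7 DAI), and Rps16 read 28844, 25609, 19274, 27398 and 22381 (-0.58). Neither was above its 0 DAI reading at any time. Rps6, the small-subunit protein that S6 kinases phosphorylate, read 17266, 18754, 13864, 21447 and 15952, with ratios of 0.12, -0.32, 0.31 and -0.11, so that only the arrays at 7 and 21 DAI were below sham. Rpl10a, which contacts transfer RNA as it leaves the ribosome, read 29780, 30334, 20417, 28195 and 21162, with ratios of -0.54 at 7 DAI and -0.49 at 21 DAI.

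The stalk is the flexible arm of the large subunit that recruits elongation factors, and is made of Rplp0 as its base with pairs of Rplp1 and Rplp2. Rplp0 read 796, 942, 565, 1101 and 644 at 0, 3, 7, 11 and 21 DAI, the lowest at 7 DAI (-0.50) and the highest at 11 DAI (0.47). Rplp2 read 27736, 20364, 18848, 21023 and 20068, below 0 DAI at every time, with ratios of -0.45, -0.56, -0.40 and -0.47. Rplp1, the brightest member, read 52483, 45983, 49205, 46971 and 52203, all near saturation, with ratios of -0.19, -0.09, -0.16 and -0.01. The 3 stalk genes thus gave 3 different courses, of which that of Rplp1 was read at the top of the scale.

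**Figure D2:**
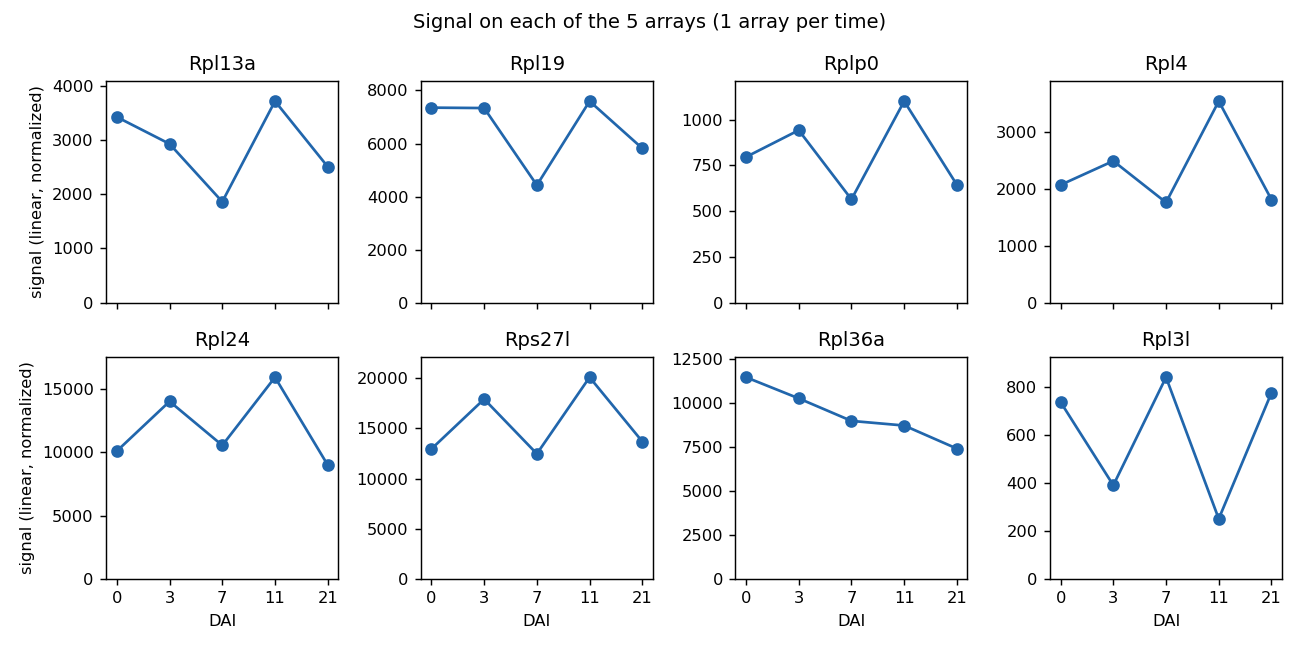
Normalized linear signal (vertical axes from 0, each gene on its own scale) of 8 ribosomal protein genes at 0, 3, 7, 11 and 21 DAI (horizontal axis, times evenly spaced), 1 array per time. Rpl13a, Rpl19, Rplp0, Rpl4 and Rps27l are lowest at 7 DAI and highest at 11 DAI, Rpl36a is lower on each later array, and Rpl3l is highest at 7 DAI and lowest at 11 DAI.

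Some members were above sham at 3 and 11 DAI and between -0.23 and 0.11 of it, on the log2 scale, at 7 DAI. The ones described here were picked for high ratios at 3 or 11 DAI. Others, such as Rpl30, Rps19 and Rps26, lay within the same bounds. Rpl24, a large-subunit protein that in yeast joins late in assembly, read 10110, 14038, 10561, 15949 and 9005 at 0, 3, 7, 11 and 21 DAI, or 1.39-fold above 0 DAI at 3 DAI (0.47) and 1.58-fold at 11 DAI (0.66). Rps27l, a close relative of Rps27 whose gene is a known p53 target in human and mouse cells, read 12959, 17930, 12474, 20111 and 13699, with ratios of 0.47, -0.05, 0.63 and 0.08. Rpl4, which lines the tunnel through which the new protein leaves, read 2070, 2491, 1762, 3542 and 1813, and at 1.71-fold (0.77) had the highest ratio of any member at 11 DAI. Rpl7a read 6068, 8003, 6558, 8439 and 6577 and was above its 0 DAI reading on all 4 later arrays. In these genes, as in the family median, the 3 and 11 DAI arrays stood above those at 7 and 21 DAI. The 0 DAI array lay near those at 3 and 11 DAI in the family median. That it lay below both in these genes follows from how they were picked.

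Some members kept other courses. Rpl36a, a large-subunit protein encoded on the X chromosome, read 11483, 10279, 8995, 8732 and 7418 at 0, 3, 7, 11 and 21 DAI, lower on each later array, with a ratio of -0.63 at 21 DAI, the lowest of the family at that time. Rpl29 was lowest at 21 DAI as well, with readings of 7350, 6436, 5277, 6499 and 5063 (-0.54). Rpl22, which in mice is needed for normal T-cell development and is the partner gene of Rpl22l1, read 1039, 1029, 872, 1067 and 1280, and was the highest member at 21 DAI (0.30).

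Rpl3l stood apart from all others. It is a relative of Rpl3 made mainly in skeletal and heart muscle, and its probe read 736, 389, 839, 250 and 774 at 0, 3, 7, 11 and 21 DAI. The arrays at 3 and 11 DAI were the low ones, at 1.89-fold and 2.95-fold below 0 DAI (-0.92 and -1.56), and those at 7 and 21 DAI were slightly above it (0.19 and 0.07). Rpl3 itself read 33518, 36377, 28181, 32568 and 29702, with ratios of 0.12, -0.25, -0.04 and -0.17. Rpl3l had the widest range of the 50 members, 1.75 on the log2 scale, and with Rpl4 (1.01) was 1 of 2 members whose range reached 2-fold, as 31.7% of all genes did.

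Among the genes that encode the known Mdm2-binding proteins, those read here gave small values. Of the 10 listed, 7 were read (Rpl23, Rpl26, Rpl37, Rps3, Rps7, Rps14 and Rps27l). Rpl5, Rpl11 and Rps27 were not among the genes analysed. The medians of the 7 were -0.09, -0.14, 0.09 and -0.19 at 3, 7, 11 and 21 DAI. Rpl23, Rpl37 and Rps14 were above 30000 on all 5 arrays, and Rps7 on 2. All 7 were below 0 DAI at 7 DAI, as were 48 of the 52 members with a ratio and 39.5% of all genes. Their ratios lay between -0.34 (Rpl26) and -0.05 (Rps27l). Of the 16 genes listed for Diamond-Blackfan anemia, 9 were read here, with medians of -0.08, -0.14, 0.09 and -0.10. None of the 9 was called at any time, where between 2.56% and 6% of all genes were called in either direction. Of the 9, 8 were below 0 DAI at 7 DAI (48 of 52 members, 39.5% of all genes). All 9 were below it at 21 DAI (43 of 53 members, 33.9% of all genes). Among them Rps19, the gene most often affected in the human disease, read 31895, 36660, 27994, 36544 and 31387 at 0, 3, 7, 11 and 21 DAI, above 30000 on 4 of 5 arrays, with ratios of 0.20, -0.19, 0.20 and -0.02. Rps10 was the lowest of the 9 at 7 and 21 DAI, with readings of 17061, 15729, 12254, 13271 and 12536 and ratios of -0.48 and -0.44.

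How bright a probe was went with how much it varied. The 12 members above 30000 on all arrays had a median range of 0.21 on the log2 scale, the 12 above it on 1 to 4 arrays 0.38, the 14 of 10000 or more on average that never reached it 0.54, and the 12 of under 10000 0.60. Over the 50 genes the range and the log2 of the mean signal gave a Pearson r of -0.66 and a Spearman rho of -0.78. Over the 26 genes that never exceeded 30000 the values were weaker, at -0.47 and -0.36. Both are descriptions across genes read on the same 5 arrays. Rps29, at 47713, 45033, 48443, 47802 and 45143, and Rpl41, at 48694, 45877, 48504, 48516 and 50070, were among the 5 brightest and had the narrowest ranges, 0.11 and 0.13. Left to the 28 members at 7 DAI with a ratio and no reading above 30000, the median was -0.37, and 25 of the 28 were below 0 DAI.

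**Figure D3:**
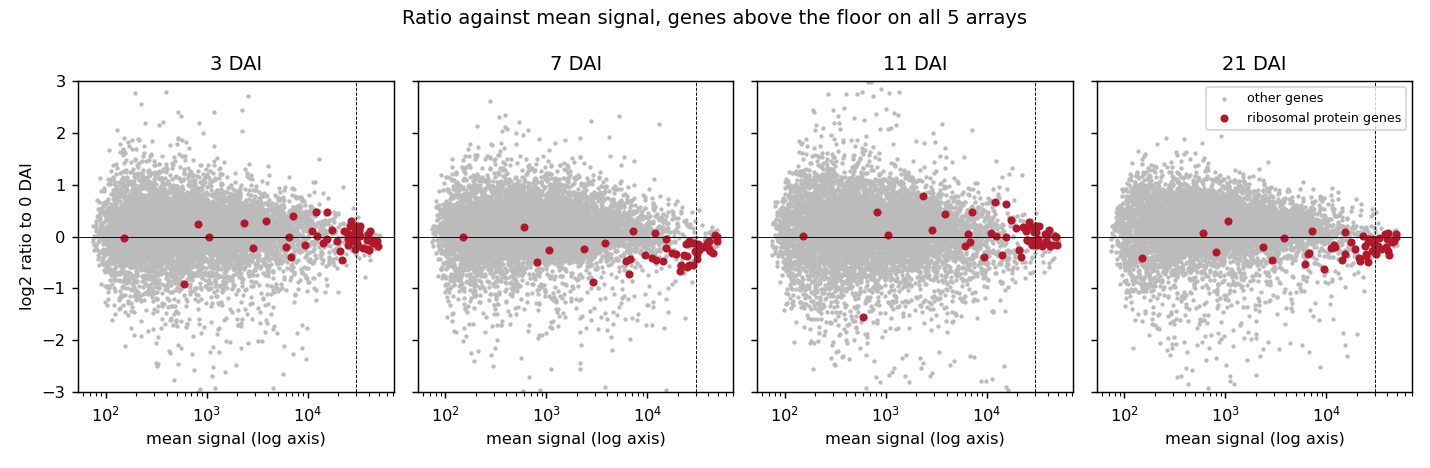
Log2 ratio to 0 DAI (vertical axis) against mean signal over the 5 arrays (horizontal log axis) for the 7129 genes above the floor on all arrays, with the 50 ribosomal protein genes in red and the mark at 30000 dashed, 1 panel per time; 16, 10, 22 and 8 points at 3, 7, 11 and 21 DAI lie outside the axis. At 7 and 21 DAI the red points lie below 0 over most of the signal scale, with medians of -0.25 and -0.20 over these 50 genes.

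Members stood lower at 7 DAI than other genes of like signal. The 14 members of 10000 or more that never exceeded 30000 gave medians of -0.02, -0.37, 0.04 and -0.23 at 3, 7, 11 and 21 DAI, and the 180 non-members of that class 0.04, 0.03, -0.09 and 0.05. Above 30000 the gap at 7 DAI was smaller, with -0.08, -0.19, -0.05 and -0.16 for the 24 members and -0.14, -0.06, -0.16 and 0.00 for the 59 non-members.

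Several members carry a second probe, which gives the same gene at another place on the scale. In 11 genes 2 or more probes were above the floor on all arrays, and in 10 of these the dimmest probe had the wider range, with Rps12, whose probes average 41459 and 41888, as the exception. The median range was 0.81 for the dimmest and 0.32 for the brightest probes. In Rps24, for example, the dim probe gave 0.11, -0.41, 0.55 and -0.07 at 3, 7, 11 and 21 DAI and the bright one -0.21, -0.19, -0.19 and -0.25. These Rps24 probes are annotated to different transcripts of the gene, and the part of that in their difference was not tested. Rpl27a, printed above for its 19-base run, gave -0.05, -0.72, 0.21 and -0.36 with its dim probe and 0.01, -0.24, -0.12 and -0.21 with its bright one.

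In 3 genes a dim probe was past 2-fold where the bright one was not. The dim probe of Rps13 read 394, 155, 112, 194 and 137 at 0, 3, 7, 11 and 21 DAI, with ratios of -1.35, -1.82, -1.02 and -1.52, and the bright one 16687, 16125, 14384, 16699 and 13236. The dim probe of Rpl38 read 1119, 2151, 1388, 2505 and 1243, the only member probe called higher at any time (1.16 at 11 DAI), while the bright one was at or below -0.10 at every time. One probe of Rpl28 was under the floor at 7 and 21 DAI, which bounds its ratio at -1.48 or less there, against -0.54 and -0.28 by the bright probe. Over all member probes, 0, 0, 1 and 0 were called higher and 1, 2, 2 and 2 lower at 3, 7, 11 and 21 DAI, where 5.21%, 3.93%, 5.63% and 2.66% of all annotated probes were higher and 4.39%, 3.71%, 5.45% and 3.86% lower. The sign differed with the probe at 1 or more times in 7 of the 11 genes (Rpl23, Rpl27a, Rpl31, Rpl38, Rps3, Rps13 and Rps24), most often at 3 DAI (5 genes) and 11 DAI (6 genes), and in 1 gene, Rpl38, at 7 DAI.

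**Figure D4:**
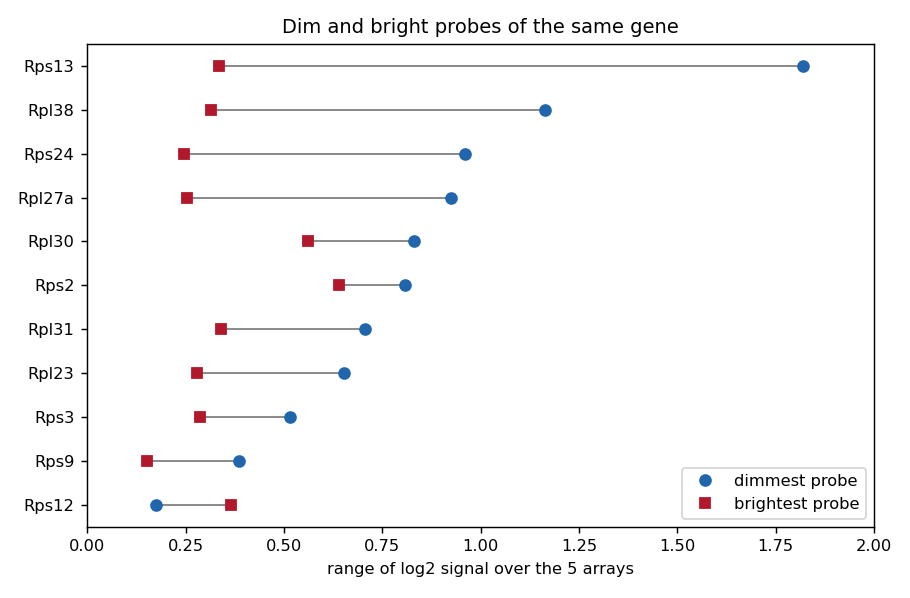
Range of log2 signal over the 5 arrays (horizontal axis) for the dimmest (circle) and the brightest (square) probe of the 11 ribosomal protein genes with 2 or more probes above the floor on all arrays. The circle lies to the right of the square in 10 genes, and the widest gap is that of Rps13, 1.82 against 0.34.

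A probe at background says little about the messenger. Rpl6, Rpl14, Rpl17, Rpl39l, Rps20 and Rpsa were under the floor on all 5 arrays, with readings between -17.5 and 58.5. Rpl39l is a testis paralog of Rpl39, while the other five encode core proteins of every ribosome. Rpl23, Rpl27a, Rpl37, Rplp2 and Rps24 each had a further probe under the floor on all arrays beside one that averaged 21608 or more. Near the floor, Rps23 read 97.0, 40.3, 55.3, 65.6 and 99.2 at 0, 3, 7, 11 and 21 DAI, Rps4l 88.7, 79.4, 39.8, 52.3 and 83.6, and Rpl21 51.4, 57.0, 60.8, 60.3 and 68.1, so that their ratios are partly bounds.

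Lists of genes that work beside the ribosomal proteins differed in their level relative to sham. The lists of TOP messages, mitochondrial ribosomal proteins, initiation factors and assembly genes nevertheless shared a turn with the members. Their medians, read on the same arrays, were lower at 7 and 21 DAI than at 3 and 11 DAI. A list of elongation factors, initiation factor 3 subunits and other genes with known TOP messages, such as the nucleolar protein Npm1, gave medians of -0.03, -0.26, 0.15 and -0.19 at 3, 7, 11 and 21 DAI (17 genes), with 16 of 17 below 0 DAI at 7 DAI (39.5% of all genes) and 1 of 17 called lower there (3.40% of all genes): Eif3h, a subunit of initiation factor 3, read 344, 293, 147, 297 and 282 (-1.23 at 7 DAI). Eef1b2, an exchange factor of elongation, was at -0.75 and Eef2, the translocase, at -0.04 at 7 DAI. The mitochondrial ribosomal proteins, which build a separate ribosome for the few proteins encoded in mitochondrial DNA, gave medians of 0.37, -0.06, 0.51 and 0.04 (72, 72, 72 and 71 genes), with 3 of 72 called higher at 11 DAI, where 6% of all genes were (Mrps18b at 1.20, Mrps34 at 1.08 and Mrps10 at 1.07). Initiation factors gave medians of 0.32, 0.02, 0.51 and 0.08 (23 genes) with 3 of 23 called higher at 11 DAI beside the same 6% of all genes, among them Eif2b3 (1.23).

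Ribosome assembly and nucleolar genes gave medians of 0.41, 0.06, 0.74 and -0.01 at 3, 7, 11 and 21 DAI (43 genes). Of these, 4, 0, 12 and 1 were called higher at those times, where 5.56%, 4.09%, 6% and 2.56% of all genes were, and none lower, where 4.19%, 3.40%, 5.21% and 3.69% were. Rrp12, a factor of small-subunit export, read 544, 1494, 1024, 1864 and 996 (1.78 at 11 DAI), and Nip7, which acts in large-subunit assembly, 680, 1497, 938, 1798 and 1042 (1.40). At 11 DAI the ribosomal proteins thus had a median of 0.00 beside 0.74 for the assembly genes, read on the same pair of arrays. Of the 59 ribosomal protein genes, 24 exceeded 30000 on at least 1 array. The 26 that were above the floor on all arrays and never exceeded 30000 had a median of 0.04 at 11 DAI. The part of near saturation in the gap was not tested. A list of regulators gave medians of 0.45, 0.47, 0.13 and 0.51 (10 genes), with 3, 0, 2 and 0 called higher and 0, 0, 1 and 1 lower. Larp1, which binds TOP messages, read 245, 551, 421, 826 and 455, with ratios of 1.17, 0.78, 1.75 and 0.90. Cdkn1a, the p53 target that halts the cell cycle, read 584, 2669, 355, 246 and 281, with ratios of 2.19, -0.72, -1.25 and -1.05. Mdm2, the ligase that removes p53, read 2029, 2100, 3280, 1785 and 3055, with ratios of 0.05, 0.69, -0.19 and 0.59.

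**Figure D5:**
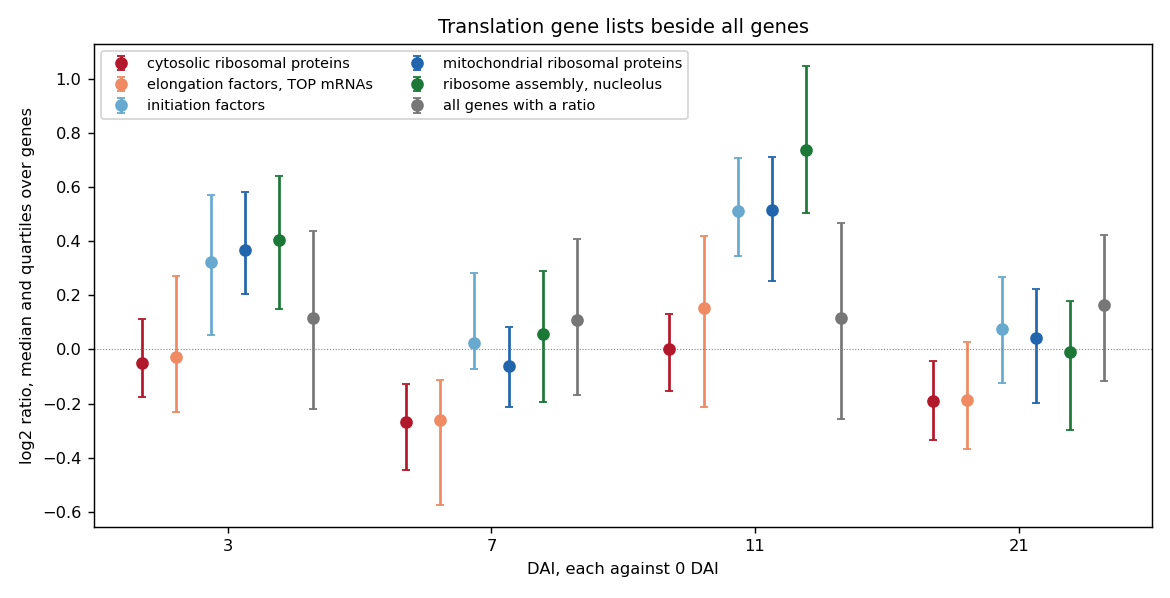
Median log2 ratio to 0 DAI, with the quartiles over genes as bars (vertical axis), of 6 gene sets at 3, 7, 11 and 21 DAI (horizontal axis). Cytosolic ribosomal proteins and the listed TOP messages lie lowest at 7 and 21 DAI, and ribosome assembly genes lie highest at 11 DAI, with a median of 0.74.

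Members with long and with short pyrimidine runs gave similar medians. The 19 genes above the floor with a run of 8 or more bases anywhere in the window of a listed start gave medians of -0.01, -0.30, 0.01 and -0.20 at 3, 7, 11 and 21 DAI. The 24 with shorter runs gave -0.03, -0.24, 0.04 and -0.21. Rpl13a and Rpl7a, both with long runs, lay at opposite ends at 7 DAI (-0.88 and 0.11), and Rpl24, with the shortest run printed, was near Rpl7a at 0.06.

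Marker RNAs of marrow cell types differed between the same arrays, and within several lists the markers did not move together. Hba-a1, Mpo and S100a8, which mark red cells and granulocytes, read no lower than 39443 on any array, as the tissue label implies. The erythroid markers (7 of 10 with a probe) had median log2 ratios of -0.67, 0.07, -0.03 and -2.08 at 3, 7, 11 and 21 DAI and summed-signal ratios of -0.41, 0.15, -0.22 and -0.54. At 21 DAI 6 of the 7 were called lower, where 3.69% of all genes were. The sums were led by Hba-a1, which held 45600 of 89731 at 0 DAI, was above 30000 on every array and stood at 0.11 at 21 DAI. The B-lineage markers (8 of 10) had medians of -2.15, -0.13, 0.56 and 0.27 and sums of -1.04, 0.44, 0.50 and 0.27, and at 7 DAI Igll1 (2.33) and Vpreb1 (2.24) stood above sham and Blk (-1.10) and Cd79b (-0.86) below it. The T and NK markers (7 of 8) had medians of 0.72, -0.45, 0.03 and -0.32 and sums of -0.73, -0.70, -0.57 and -0.39, the sums being led by Prf1. At 3 DAI 4 of 6 of these markers with a ratio were above sham, as were 5082 of all 8471 genes with a ratio. The megakaryocyte markers (5 of 6) had medians of 1.28, -0.91, 1.15 and -0.16 and sums of 1.95, -2.22, 1.17 and 0.14. At 7 DAI 4 of them had a ratio, of which 2 were above the floor on both arrays. The macrophage markers (6 of 7) had medians of 2.75, 1.5, 1.5 and 1.02 and sums of 1.53, 0.60, -0.19 and 0.51. At each time only 3 of these 6 were above the floor on both arrays, and the other ratios are bounds. Stromal markers (7 of 8) had medians of 2.22, -0.06, -0.20 and -0.35 and sums of 2.93, 0.06, -0.17 and -0.82, with Col1a1 above the floor at 3 DAI alone. These medians rest on 6, 4, 4 and 4 genes with a ratio. Of those, 4, 2, 2 and 2 were above the floor on both arrays, and the other ratios are bounds. Stem and progenitor markers (5 of 6) had medians of 0.34, 0.14, -0.10 and 0.52, from 4, 3, 3 and 3 genes with a ratio, and sums of 0.42, 0.20, -0.09 and 0.61. The neutrophil markers (9 of 10) had medians of -0.16, -0.08, -0.04 and 0.03 and sums between -0.10 and 0.06, most of them read above 30000, while Itgam, at 197 to 953, had ratios of -0.63, 0.82, -1.46 and 0.19. The part of these cell types in the ribosomal protein values was not tested.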

How the data were processed

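The deposited intensities came from 5 Illumina MouseWG-6 arrays, which the authors background-subtracted and normalized to a common array mean with GenomeStudio 2010.2, per the labels. They are linear signals, and the array mean was 535.7 on each. The non-normalized table was left aside because nothing ties its 10 columns to samples. Probe genes came from the platform annotation: 34885 of 45281 probes had 1 symbol, 18 several and 10378 none listed. The probe with the highest mean signal stood for a gene. Signals under 64 were raised to 64, and a log2 ratio to 0 DAI was taken where at least 1 of the pair was above it. With 1 array per time there was no test and arrays of this number set the precision; "called" means 2-fold. Gene lists are described by counts and medians beside all genes, and marker lists by medians and summed signals. Named genes were the stalk genes, the 5 brightest members, the 5 highest and lowest ratios per time, the 8 widest ranges, called members, members under the floor, and the extremes of each list. The members and lists were chosen with earlier results of these data known. Symbols, chromosomes and start sequences are those of RefSeq (GRCm38.p6), and all 59 members matched by gene ID. Calculations ran in Python 3.11.15 with numpy 2.4.6, pandas 2.3.3 and scipy 1.17.1, and were tested on simulated data. Alternatives were other scalings, floors, probes, baselines and sizes of call.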

Additional observations from a re-analysis of the deposited data

How the results depend on the processing

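No paired analysis was possible because each time has 1 array, and for the same reason no array could be left out of a group. The median log2 ratio at 3 DAI, -0.05, changed sign with quantile normalization (0.01) and with an irradiated baseline (0.16), and that at 11 DAI, 0.00, lay near enough to 0 for its sign to turn with median scaling; those at 7 and 21 DAI stayed negative under every alternative run. Median log2 ratios moved by over 0.1 in these cases: with quantile normalization to -0.16 at 7 DAI and -0.070 at 21 DAI; with median scaling to -0.39, -0.12 and -0.33 at 7, 11 and 21 DAI; without near-saturated genes to -0.37 at 7 DAI; and with the average of the remaining 3 irradiated arrays as baseline to 0.16 at 3 DAI and 0.16 at 11 DAI. Called lower, the count at 3 DAI became 1 with quantile normalization, median scaling or all probes and 2 at 1.5-fold; at 7 DAI it became 1 with median scaling or with Rpl36al, Rpl22l1 and Rpl7l1 added, 2 with the mean over probes or with all probes, and 4 at 1.5-fold; at 11 DAI 2 with all probes and 0 at 3-fold; at 21 DAI 2 with all probes and 1 at 1.5-fold. Called higher, the count at 11 DAI became 1 with all probes and 3 at 1.5-fold. The following were added after the data were seen. Without near-saturated genes the members below 0 DAI were 17 of 28, 25 of 28, 11 of 28 and 22 of 29 at 3, 7, 11 and 21 DAI, and 18 of 26 were lowest at 7 DAI, counts that are smaller because fewer genes remain. With median scaling 38 of 52 were below 0 DAI at 11 DAI, and with quantile normalization 40 of 52 at 7 DAI and 36 of 53 at 21 DAI. The other 115 alternatives for medians and counts stayed within 0.1 or 1.5 times. Relative to all genes the family stood at -0.21 and -0.15 at 7 and 21 DAI with quantile normalization. Signal near the top of the scale may limit how large a ratio the brightest members show, and a lone array per time limits every value.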

Other observations

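A few ribosomal protein genes have symbols outside the naming rule and were read on the same arrays. Rps3a1, a core protein of the small subunit, read 3443, 2398, 1638, 2593 and 2466 at 0, 3, 7, 11 and 21 DAI, with ratios of -0.52, -1.07, -0.41 and -0.48, so that its 7 DAI reading was past 2-fold lower. Rpl22l1, the paralog of Rpl22, read 595, 482, 287, 590 and 384, with ratios of -0.30, -1.05, -0.01 and -0.63. In both the array at 7 DAI was the lowest, as in 33 of the 50 members. Rpl36al, an autosomal copy of Rpl36a, read 14132, 16664, 15196, 19316 and 13426, with ratios of 0.24, 0.10, 0.45 and -0.07, beside -0.16, -0.35, -0.40 and -0.63 for Rpl36a. These genes were looked up after their values were known.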
